A study of Mus musculus with 8 samples.

Results

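The lysosomal cathepsins described here are 10 protease genes, Ctsa, Ctsb, Ctsc, Ctsd, Ctsf, Ctsh, Ctsk, Ctsl, Ctss and Ctsz. They were picked by gene symbol, each matched to 1 Ensembl identifier of the deposited count table, and they are 10 of the 27679 genes listed there. RNA-seq was run on megakaryocytes, the large polyploid marrow cells that shed platelets. The series asks what a soft confining milieu does to these cells, and compares 4 libraries from hydrogel culture with 4 from liquid culture. All 8 libraries came from bone marrow of wild-type C57BL/6 mice, whose age is not given in the sources used here. Lineage-negative cells were obtained by magnetic depletion and cultured for 3 days. The hydrogel group grew in 2% methylcellulose, whose stiffness was 30 to 60 Pa as Young modulus. The control group grew in liquid medium. Both groups were then passed over a BSA gradient of 2 to 4%, which keeps the larger mature megakaryocytes but does not select on a surface marker. The submitters call the replicates independent biological ones. Whether each came from separate animals is not given in the sources used here, so p-values measure the spread between these cultures.

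Cathepsins are proteases that work in the acid interior of lysosomes, where they break down proteins brought in by endocytosis, phagocytosis and autophagy. They are made as inactive proenzymes, carried to the lysosome mainly by the mannose 6-phosphate receptors, and cut there to their active form. Macrophages and their relatives are rich in them. Ctsd is an aspartic protease, Ctsa a serine carboxypeptidase, and the other members are papain-type cysteine proteases.

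In hydrogel culture, 9 of the 10 cathepsins were higher than in liquid culture and 0 were lower, with only Ctsf not passing. The test was edgeR's quasi-likelihood test, with p-values adjusted by Benjamini-Hochberg and called under 0.05. Among all 13845 tested genes it called 29.3%, 15.1% higher (2096 genes) and 14.1% lower (1956 genes). Upper-quartile scaling moved that split to 1755 higher and 2492 lower, with the same count of 9 members higher. The rise was between 1.85-fold for Ctsd and 7.07-fold for Ctsk, and 8 members at least doubled, against 6.89% of all tested genes. The median log2 change of the 10 members was 1.81, a 3.51-fold rise, against −0.01 over all tested genes. For the same 9 members the lowest hydrogel library lay above the highest liquid library, which held for 14.6% of tested genes (28.4% when separation in either direction is counted). Together the members took 0.172% to 0.275% of the counts of tested genes in liquid libraries, and 0.416% to 0.852% in hydrogel libraries. In bulk RNA, fewer cells of a type and less RNA per cell cannot be told apart, and this holds for every level given here.

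Library totals ran from 27012172 to 49281611 counts, and all 10 members passed the filter on low counts. The labelled cell type was borne out by its markers: 17 megakaryocyte and platelet genes together made up 28485 to 41367 CPM (read counts scaled to a common library size by TMM) in hydrogel and 34322 to 56070 CPM in liquid. A pair of libraries stood apart from their groups. Hydrogel 1 was the lowest hydrogel library for 10 of 10 cathepsins, and liquid 2 was the highest liquid library for 8 of 10. The summed CPM of 24 monocyte and macrophage markers moved the same way, at 0.527 times the mean of the other hydrogel libraries in hydrogel 1 and at 1.89 times that of the other liquid libraries in liquid 2. For the megakaryocyte markers the ratios were 1.39 in hydrogel 1 and 0.651 in liquid 2. Without both libraries, 9 members still passed and the median log2 change was 2.20. That fit put Ctsb at 2.84, Ctsh at 3.25 and Ctss at 3.26 on the log2 scale, against 2.28, 2.58 and 2.63 with all libraries.

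**Figure D1:**
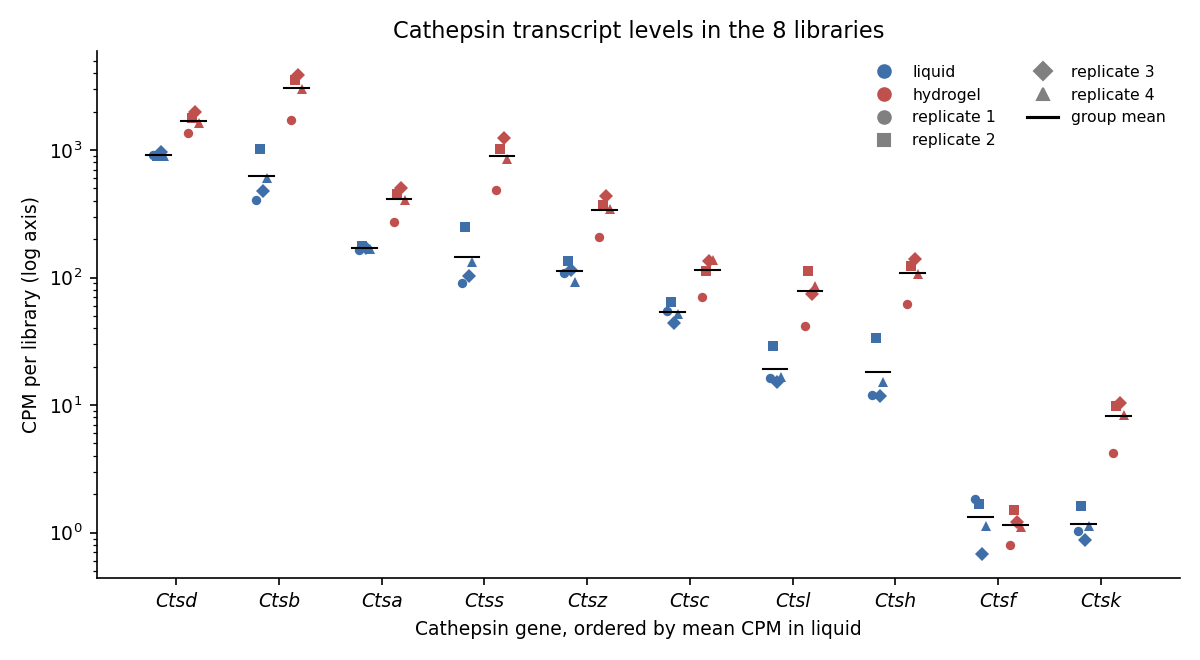
Level of each cathepsin in CPM on a log axis, with 1 point per library, liquid in blue, hydrogel in red, replicates by shape and group means as black bars. For every gene but Ctsf the 4 hydrogel points lie above the 4 liquid points, and hydrogel replicate 1 (circles) is the lowest hydrogel point of every gene.

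Promoter sequences bear on whether members that rose together carry shared motifs, and short stretches around the matches are shown for that reason. The promoters were taken from RefSeq (build GRCm38.p6, 250 bases before to 50 after each start site), which gave 9 promoters for 8 members, with 2 for Ctsa. Ctsb and Ctsh had no entry. The first motif was the palindromic E-box CACGTG, the core to which the lysosomal regulators of the MiT family (Tfeb, Tfe3, Mitf, Tfec) bind, searched on both strands. It was found in 4 members, Ctsa, Ctsd, Ctsf and Ctsl, and in 7.15% of all 32851 promoters. The longer form TCACGTG, which contains that E-box, was found in Ctsa and Ctsd, and in 3.77% of all promoters. The full CLEAR palindrome, a longer form of the same E-box, was found in 0 members and in 0.326% of all promoters. The motif GAGGAAGT, a form of the PU.1 site, was searched on both strands and found as its reverse complement ACTTCCTC in Ctsc and Ctss, and in 3.20% of all promoters. Stretches are written along the gene's own strand, 5′ to 3′, with the matched bases in capitals.
Ctsa: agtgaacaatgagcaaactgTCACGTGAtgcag
Ctsd near: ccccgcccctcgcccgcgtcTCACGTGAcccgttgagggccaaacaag
Ctsd far: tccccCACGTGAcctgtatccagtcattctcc
Ctsl: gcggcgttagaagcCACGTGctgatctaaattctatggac
Ctsf: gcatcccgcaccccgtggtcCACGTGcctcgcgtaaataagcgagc
Ctsc: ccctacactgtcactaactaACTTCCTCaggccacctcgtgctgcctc
Ctss: tgaaaccgaaatgaaagttcACTTCCTC

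The Ctsa stretch is chr2:164833740-164833772 on the plus strand, with the match starting 13 bases before the start site, and a further match of that promoter lies just after the start site. The Ctsd stretches are chr7:142387899-142387946 and chr7:142388046-142388077 on the minus strand, with matches 99 and 245 bases before the start. In both Ctsa and the nearer Ctsd stretch the match reads TCACGTGA, an E-box flanked by T and A. The Ctsl stretch is chr13:64370731-64370770 on the minus strand (236 bases before) and the Ctsf stretch chr19:4855066-4855111 on the plus strand (79 bases before). The Ctsc stretch is chr7:88277914-88277961 (151 bases before) and the Ctss stretch chr3:95526764-95526791 (2 bases before, so that the match crosses the start), both on the plus strand. Of the 4 members with an E-box, 3 were higher in hydrogel and Ctsf was not called, and both members with the PU.1 motif were higher. Ctsk and Ctsz, whose promoters held neither motif, were higher too, so these counts set no motif apart. A match is a description of the letters in this window and not a measured binding site.

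Ctsd, the aspartic protease and a major acid endopeptidase of lysosomes, had the smallest rise of the members that passed. It measured 915, 891, 958 and 889 CPM in liquid replicates 1 to 4 and 1357, 1786, 1978 and 1631 CPM in hydrogel replicates 1 to 4. The liquid libraries were tightly grouped and the lowest hydrogel library was above all of them. The log2 change was 0.89 ± 0.12 (SE), from 913 ± 32.3 to 1688 ± 262 CPM (SD, n = 4 each), with an adjusted p of 0.000802 by edgeR's quasi-likelihood test. Ctsd was not raised in liquid 2, which was at 0.968 times the mean of the other liquid libraries. Ctsd shares 808 exon bases on the same strand with a predicted gene, Gm49369, in the GENCODE annotation used for names and lengths, so its count may hold reads of that model.

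Ctsa is the carboxypeptidase that also protects the sialidase Neu1 and the β-galactosidase Glb1 in a lysosomal complex. Its liquid replicates lay at 164, 176, 171 and 166 CPM and its hydrogel replicates at 273, 455, 506 and 403 CPM. The liquid libraries lay close together, and the groups did not overlap. Ctsa rose 2.42-fold (log2 1.27 ± 0.16 SE, adjusted p 0.000596 by edgeR's quasi-likelihood test with Benjamini-Hochberg adjustment). Of its partners in the complex, Neu1 rose 1.89-fold (adjusted p 0.00238 by the same edgeR test), whereas Glb1 was at 113 ± 8.10 CPM in liquid and 105 ± 4.63 CPM in hydrogel (adjusted p 0.227).

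The exopeptidases among the cysteine cathepsins trim peptides from their ends. Ctsb is one of them and also cuts within chains. Its liquid libraries read 403, 1023, 473 and 597 CPM and its hydrogel libraries 1725, 3527, 3886 and 3027 CPM. Liquid 2 was more than double the mean of the other liquid libraries (2.08 times) and still below hydrogel 1. The log2 change of Ctsb was 2.28 ± 0.33 (SE), a 4.87-fold rise with an adjusted p of 0.00104 in the edgeR test.

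Ctsh, an aminopeptidase, and Ctsz, a carboxypeptidase, rose by different amounts. Ctsh measured 11.97, 33.3, 11.9 and 15.3 CPM in liquid and 61.9, 122, 139.8 and 107 CPM in hydrogel. Liquid 2 stood well above the other liquid libraries, and the groups did not overlap. The rise of Ctsh was 5.97-fold (log2 2.58 ± 0.36 SE, edgeR adjusted p 0.000953). Ctsz measured 109, 134, 114 and 93.0 CPM in liquid and 206, 372, 435 and 347 CPM in hydrogel. Its groups were apart too, and it rose 3.02-fold (log2 1.60 ± 0.20 SE, edgeR adjusted p 0.000656).

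Ctsc, or dipeptidyl peptidase I, removes dipeptides and activates the granule serine proteases of neutrophils, mast cells and cytotoxic lymphocytes. Its liquid libraries were at 54.7, 64.8, 44.1 and 51.7 CPM and its hydrogel libraries at 70.8, 113, 134 and 136 CPM. Hydrogel 1 was only slightly above liquid 2, the closest approach of the groups among the 9 members that rose. The rise was 2.11-fold (log2 1.08 ± 0.19 SE, adjusted p 0.00291 by edgeR's test), and leaving out single libraries moved the adjusted p to 0.0140 at most. Of its substrates, 5 of 10 listed granule serine proteases had enough counts to test. By edgeR 0 of them were higher and 0 lower (1 lower at an unadjusted p under 0.05), with a median log2 change of −0.52. DESeq2, run without that filter on low counts, tested all 10 and called 1 lower, and limma-voom called 0 of 5. EdgeR called 1 lower without hydrogel 2, 1 without hydrogel 3, 2 without liquid 3 and 2 with a macrophage marker score as covariate, and 2 higher without hydrogel 1 and liquid 2 together. The summed CPM of the 10 was 74.2 to 304 in liquid and 82.2 to 192 in hydrogel.

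The endopeptidases cut within chains. Ctss stays active at neutral pH and processes the invariant chain of MHC class II in antigen-presenting cells. It read 91.1, 249, 103 and 133 CPM in liquid and 482, 1012, 1233 and 849.9 CPM in hydrogel. All hydrogel libraries exceeded liquid 2, the highest liquid library, and liquid 2 was 2.29 times the mean of the other liquid libraries. Ctss rose 6.21-fold (log2 2.63 ± 0.37 SE, edgeR adjusted p 0.000896). Among 10 invariant chain and MHC class II genes, 1 was higher and 1 lower by edgeR. Cd74, the invariant chain itself, was 2.39-fold higher (adjusted p 0.0288 in the edgeR test), a call that was lost on leaving out any 1 library except hydrogel 1 or liquid 2, with a log2 change of 1.06 without liquid 3. In those 6 cases 0 genes of the list were called higher, against 4 without hydrogel 1 and 6 without liquid 2. In the fit with the macrophage covariate Cd74 was lower (log2 −1.18, edgeR adjusted p 0.0391). H2-Ob was 2.55-fold lower (adjusted p 0.00137 in the same edgeR test).

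Ctsl, a broadly expressed endopeptidase, measured 16.2, 29.1, 15.2 and 16.5 CPM in liquid and 41.9, 112, 74.3 and 85.4 CPM in hydrogel. The hydrogel libraries differed among themselves by more than double, yet all were above the liquid libraries. Ctsl rose 4.07-fold (log2 2.03 ± 0.30 SE, edgeR adjusted p 0.00114).

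Ctsk is the collagen-degrading cathepsin of osteoclasts and had the largest fold of the members, from few reads. It had 32, 49, 40 and 43 reads (1.03, 1.61, 0.880 and 1.14 CPM) in liquid and 153, 314, 286 and 258 reads (4.19, 9.81, 10.4 and 8.35 CPM) in hydrogel. The groups did not overlap, and the rise was 7.07-fold (log2 2.82 ± 0.31 SE, edgeR adjusted p 0.000375). Of 8 tested osteoclast markers, 3 were higher and 2 lower by edgeR, with a median log2 change of 0.50. Acp5, tartrate-resistant acid phosphatase, went from 0.577 ± 0.285 to 2.904 ± 0.720 CPM, 5.01-fold higher (edgeR adjusted p 0.00124), and Atp6v0d2, a proton pump subunit, was 7.09-fold higher (edgeR adjusted p 0.00386). Tnfrsf11a, the receptor RANK, was 2.54-fold higher and Oscar 1.79-fold lower, and edgeR called neither without hydrogel 2 (adjusted p 0.0505 and 0.0514). Without hydrogel 1, 3 or 4 or liquid 2 or 4, 1 osteoclast marker was called lower.

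Ctsf was the member that did not pass. It had 57, 51, 31 and 43 reads in liquid libraries and 29, 48, 33 and 34 in hydrogel libraries, which is 1.33 ± 0.525 CPM against 1.15 ± 0.291 CPM. The groups overlapped, and the log2 change was −0.20 ± 0.34 (SE) with an edgeR adjusted p of 0.696. At these counts the standard error leaves both a modest rise and a modest fall possible, and without hydrogel 1 and liquid 2 the log2 change was 0.10.

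Compared per kilobase of the longest well-supported coding transcript, the members spanned a wide range. In liquid, Ctsd led with 429 ± 15.2 CPM per kb (SD, n = 4 here and below), followed by Ctsb (132 ± 58.6), Ctss (106 ± 53.4), Ctsz (78.1 ± 11.6), Ctsa (66.8 ± 1.98), Ctsc (16.7 ± 2.65), Ctsh (11.2 ± 6.35), Ctsl (9.78 ± 3.35), Ctsk (0.770 ± 0.209) and Ctsf (0.672 ± 0.265). The libraries of neighbouring genes in this order overlapped except between Ctsd and Ctsb, Ctsa and Ctsc, and Ctsl and Ctsk. In hydrogel the levels were 794 ± 123 CPM per kb for Ctsd, 659.8 ± 233 for Ctss, 641 ± 199 for Ctsb, 236 ± 67.2 for Ctsz, 161 ± 39.4 for Ctsa, 66.6 ± 20.7 for Ctsh, 39.7 ± 14.6 for Ctsl, 35.2 ± 9.39 for Ctsc, 5.42 ± 1.86 for Ctsk and 0.581 ± 0.147 for Ctsf. Within each library Ctsd was the highest member, in 4 of 4 hydrogel and 4 of 4 liquid libraries, although over the hydrogel libraries its range overlapped those of Ctss and Ctsb. Neighbours whose hydrogel ranges did not overlap were Ctsb and Ctsz, Ctsa and Ctsh, Ctsc and Ctsk, and Ctsk and Ctsf. Dividing by the length of all exons lowered Ctsa, Ctsc, Ctsf, Ctsh and Ctsl by over 1.5 times, to 35.9, 9.27, 0.264, 4.03 and 2.97 CPM per kb in liquid and 86.7, 19.5, 0.228, 23.9 and 12.1 in hydrogel. With that length Ctss (106 CPM per kb) came above Ctsb (103) in liquid, Ctsc above Ctsl in hydrogel, and Ctsd led in 3 of 4 hydrogel libraries, with Ctss leading in the other.

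The make-up of the summed cathepsin level (CPM per kb over the 10 members) differed between cultures. Ctsd made up 56.8%, 40.3%, 56.1% and 51.8% of it in liquid replicates 1 to 4 and 37.7%, 28.5%, 27.9% and 29.6% in hydrogel. Every liquid library had a higher Ctsd share than every hydrogel library. The difference was −20.3 percentage points, with an exact two-sided permutation p of 0.0286, the smallest that 70 splits of 4 against 4 allow. Ctss gained 12.4 points (from 12.1% ± 4.04 to 24.5% ± 2.63) and Ctsb 8.98 points (from 15.0% ± 4.27 to 24.0% ± 1.70), each with an exact permutation p of 0.0286. At the same exact p the shares of Ctsh (from 1.26% to 2.49%) and Ctsk (from 0.0895% to 0.201%) were also higher, and those of Ctsa (from 7.95% to 6.15%), Ctsc (from 1.97% to 1.34%) and Ctsf (from 0.0794% to 0.0223%) lower. The shares of Ctsl (1.13% and 1.496%, exact permutation p 0.143) and Ctsz (9.21% and 8.90%, exact permutation p 0.543) did not pass. All 10 shares were tested, the p-values are unadjusted, and the shares depend on each other because they add up to the whole. With any 1 library left out the exact p of the shares that passed was 0.0286 or 0.0571, and each difference kept its sign. An exact p of 0.0571 is not the smallest possible there, since 0.0286 was also reached.

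**Figure D2:**
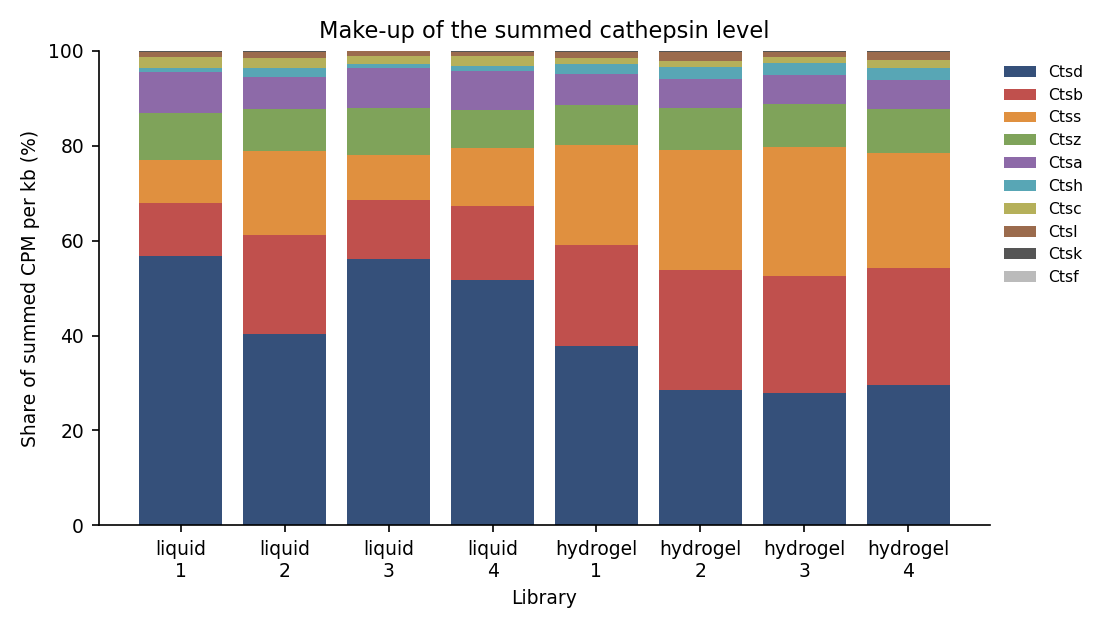
Share of each cathepsin in the summed CPM per kb of the 10 members, in percent, for 4 liquid and 4 hydrogel libraries. The Ctsd segment falls from 40.3–56.8% in liquid to 27.9–37.7% in hydrogel, while Ctsb and Ctss widen, and liquid 2 lies nearer to the hydrogel libraries than the other liquid libraries do.

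Markers of other cell types were measured beside the cathepsins because macrophages carry much of the same machinery. Of 24 monocyte and macrophage markers, with lysosomal proteases left out, 23 were tested and edgeR called 19 higher and 0 lower, with a median log2 change of 1.91, close in size to the 1.81 of the cathepsins. Their summed level was 1220, 2282, 1084 and 1327 CPM in liquid replicates 1 to 4 and 3869, 7052, 8007 and 6944 CPM in hydrogel. Lyz2, macrophage lysozyme, went from 883 ± 238 to 3536 ± 945 CPM, and the pore-forming Mpeg1 from 193 ± 109 to 1324 ± 442 CPM (edgeR adjusted p 0.000554 and 0.00089). None of the 24 was at 0 in all libraries, and Vsig4 had too few reads to test. The megakaryocyte markers moved the other way, with 12 of 17 lower by edgeR and a median log2 change of −0.57 (16 lower without hydrogel 1 or without liquid 2, and 5 to 7 without any other single library).

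Of 7 tested dendritic cell markers 6 were lower and 1 higher, with summed levels of 31.6 to 58.5 CPM in liquid and 17.3 to 21.5 CPM in hydrogel. Of 9 tested neutrophil markers edgeR called 2 higher and 1 lower, with a median log2 change of −1.01. Mmp8 went against that median and was 11.3-fold higher (edgeR adjusted p 0.000248). The sums of the neutrophil list overlapped between cultures, at 295 to 1329 CPM in liquid and 293 to 713 CPM in hydrogel. EdgeR called 4 of these markers lower without liquid 3, 2 without hydrogel 3 and 0 without hydrogel 4. In the mast cell and basophil list 6 of 8 were lower (1 to 3 without hydrogel 1, 2 or 4 or liquid 2 or 4). Erythroid markers had 2 of 5 lower, lymphocyte markers 1 of 2 lower, and stromal and endothelial markers 1 higher and 2 lower of 6. Of these marker lists other than that of macrophages, none had a positive median log2 change except that of osteoclasts.

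Each cathepsin was set against the macrophage markers within the same library, as its log2 CPM minus the mean log2 CPM of the 23 tested markers. Ctsb was at 5.72 ± 0.07 in liquid and 5.80 ± 0.22 in hydrogel (SD, n = 4 each), a difference of 0.08 with an exact two-sided permutation p of 0.571. Ctsh and Ctss rose slightly more than the mean of the markers, by 0.41 and 0.43, each with an exact permutation p of 0.0286 and groups that did not overlap. Ctsc, Ctsd and Ctsf fell relative to that mean, with differences of −1.20, −1.37 and −2.38, each also with an exact permutation p of 0.0286. Single markers differed widely, with log2 changes from 0.43 to 6.67 in the edgeR fit. The changes of Ctsh, Ctss, Ctsc and Ctsd lay inside that range, and that of Ctsf (−0.20) lay below it. Ctsa (−1.005) and Ctsz (−0.69) had an exact permutation p of 0.0571, Ctsk (0.47) of 0.0857 and Ctsl (−0.25) of 0.200. Leaving out 1 library moved the exact p of Ctsc, Ctsd, Ctsh and Ctss to 0.0571 at most. Without liquid 2, Ctsa (−1.28) and Ctsz (−0.89) reached an exact p of 0.0286, as did Ctsk (0.58) without liquid 1. The 10 p-values are unadjusted.

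**Figure D3:**
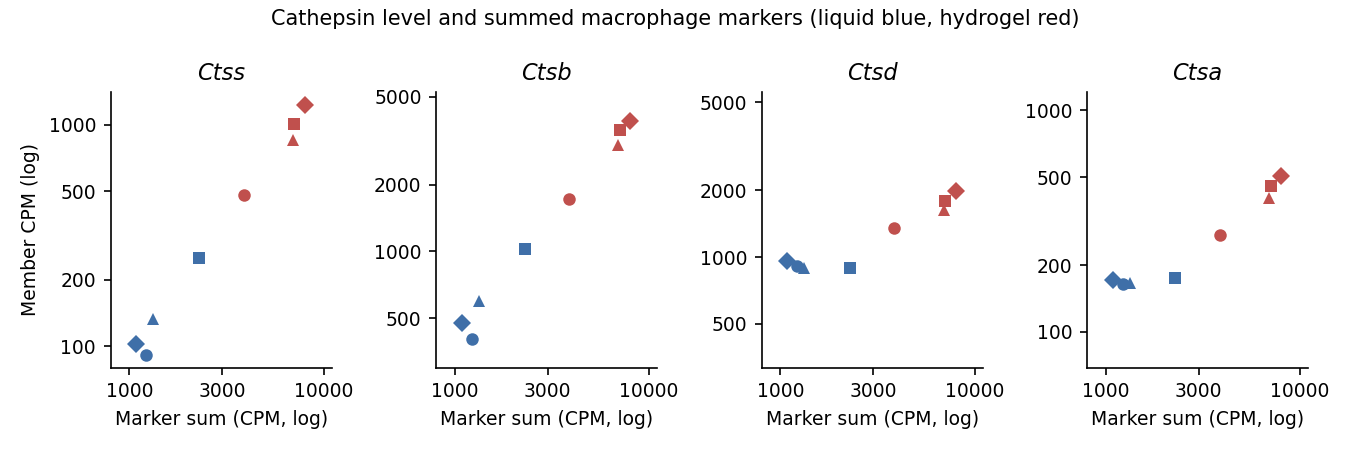
Level of Ctss, Ctsb, Ctsd and Ctsa in CPM against the summed CPM of the macrophage markers, both on log axes, with y axes that span the same factor, and 1 point per library (liquid blue, hydrogel red, replicates by shape). Ctss and Ctsb climb steeply with the marker sum and liquid 2 lies on their way up, while Ctsd and Ctsa are flat among the liquid libraries and higher in hydrogel.

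With the mean macrophage marker score added to the edgeR model as a covariate, 0 of the 10 cathepsins passed in either direction (1 was higher at an unadjusted p under 0.05), where 2.38% of all tested genes were higher and 1.78% lower. The median log2 change of the members in that fit was 0.26. Ctsk (0.86, adjusted p 0.401), Ctsd (0.65, adjusted p 0.201), Ctsa (0.60, adjusted p 0.369) and Ctsz (0.58, adjusted p 0.460) kept the largest estimates in that edgeR fit, while Ctsb was at 0.13, Ctsl at 0.08 and Ctsc at −0.08. The score shared 84.9% of its variance with culture, a variance inflation of 6.60, so that the effect of culture and a change in macrophage RNA cannot be told apart in these 8 libraries.

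**Figure D4:**
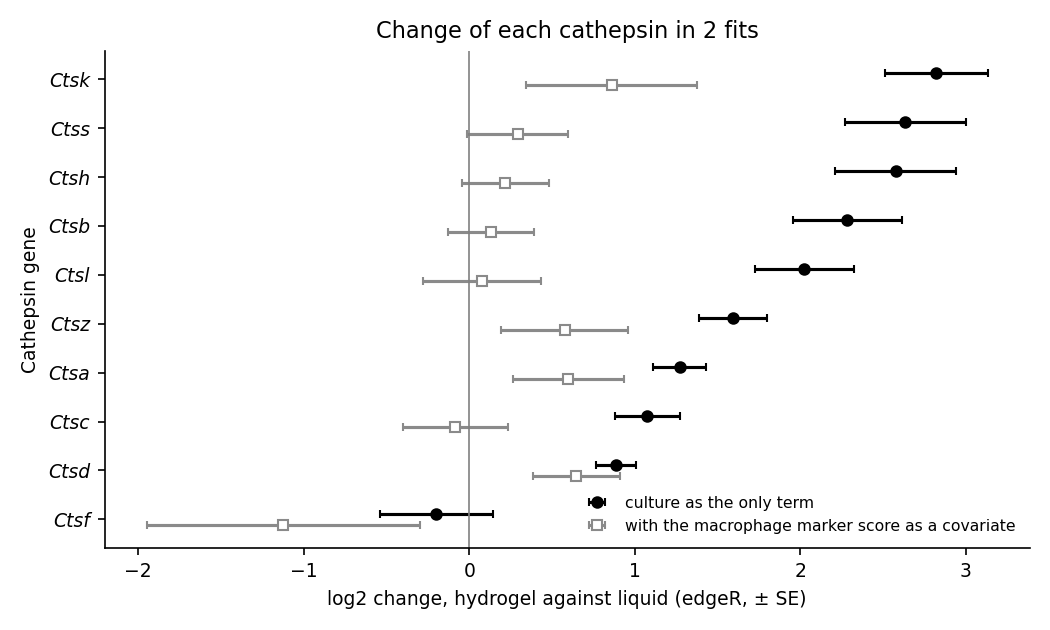
The log2 change of each cathepsin between hydrogel and liquid, with its standard error, by edgeR with culture as the only term (filled circles) and with the macrophage marker score as a covariate (open squares). Filled circles run from −0.20 for Ctsf to 2.82 for Ctsk, and the open squares of 9 genes lie between −0.08 and 0.86, with Ctsf at −1.12.

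Other lists of the lysosomal system had smaller median changes. Of 21 genes for sorting and maturation of lysosomal enzymes, edgeR called 13 higher and 0 lower, with a median log2 change of 0.32. Lgmn, the asparaginyl endopeptidase that cuts several procathepsins to their mature form, was 7.15-fold higher (37.1 ± 21.7 to 265 ± 92.6 CPM, edgeR adjusted p 0.000976). Psap, the precursor of the saposins, rose from 1157 ± 441 to 5953 ± 1870.4 CPM, which is 5.15-fold (edgeR adjusted p 0.000683). Cln8, a sorter of lysosomal enzymes in the endoplasmic reticulum, rose 2.96-fold, and Grn, the granulin precursor, rose 2.24-fold (edgeR adjusted p 0.000383 and 0.00104). The 2 mannose 6-phosphate receptors differed in their values, with Igf2r 2.09-fold higher (edgeR adjusted p 0.0106) and M6pr at 341 ± 22.2 CPM in liquid and 331 ± 7.64 CPM in hydrogel (adjusted p 0.664).

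Among 29 lysosomal hydrolases other than cathepsins, 21 were higher and 0 lower by edgeR, with a median log2 change of 0.51. Gla, the α-galactosidase, rose 2.84-fold (edgeR adjusted p 0.000238), ahead of Gusb, the β-glucuronidase (2.05-fold), Galc, the galactosylceramidase (2.01-fold), and Acp2, a lysosomal acid phosphatase (1.91-fold), with edgeR adjusted p from 0.000666 to 0.000845. Of 16 lysosomal membrane proteins, 10 were higher and 2 lower, with a median log2 change of 0.42. The lower genes were Ostm1 (1.40-fold lower, edgeR adjusted p 0.00318) and Laptm4a (1.28-fold lower, edgeR adjusted p 0.0168). With 1 library left out, 1 or 2 of the list were called lower. Slc11a1, a metal ion transporter of phagocyte lysosomes, rose 6.36-fold, Npc1, a cholesterol exporter, 2.57-fold, Clcn7, a chloride and proton exchanger, 2.31-fold, and Cd63, a tetraspanin of lysosomes and platelet dense granules, 1.68-fold (edgeR adjusted p 0.000422, 0.000554, 0.000377 and 0.000529). The main glycoproteins of the lysosomal membrane changed little in size: Lamp1 rose 1.39-fold (edgeR adjusted p 0.00456) and Lamp2 was at 375 ± 45.2 CPM in liquid and 421 ± 36.4 CPM in hydrogel (adjusted p 0.250). Leaving out single libraries gave 11 to 13 higher sorting genes, 18 to 21 higher hydrolases and 8 to 10 higher membrane proteins, and with the macrophage covariate 1, 1 and 0 were called higher.

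The endogenous inhibitors of cysteine cathepsins did not move as a block: of 5 tested, 2 were higher and 2 lower by edgeR. Cstb, a cytosolic inhibitor, rose 2.36-fold from 53.4 ± 4.23 to 126 ± 29.2 CPM (edgeR adjusted p 0.000599), and Cst7, a lysosomal inhibitor that acts on Ctsc and Ctsl, rose 2.18-fold (edgeR adjusted p 0.000238). Cst3, a secreted inhibitor, was at 132 ± 15.7 CPM in liquid and 168 ± 29.5 CPM in hydrogel (edgeR adjusted p 0.0789). It passed without hydrogel 1 (log2 0.46, edgeR adjusted p 0.00676) and without liquid 2 (log2 0.41, edgeR adjusted p 0.0415). Ctla2a and Ctla2b, whose products resemble a cathepsin propeptide, were 1.81-fold and 2.12-fold lower (edgeR adjusted p 0.00507 and 0.0356), but the genes are near-identical copies and their reads may be split between them. Ctla2a alone of the pair was called without hydrogel 2, 3 or 4 or liquid 2, 3 or 4.

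Of the other cathepsin-type genes 5 were tested. Napsa, an aspartic protease, rose 3.00-fold (edgeR adjusted p 0.0074). Ctso, a little-studied cysteine cathepsin, was 1.24-fold higher (edgeR adjusted p 0.0370) and lost that call on leaving out any 1 library except hydrogel 1, with a log2 change of 0.23 without liquid 2. Upper-quartile scaling and no low-count filter also ended its call in edgeR (adjusted p 0.0680 and 0.0728). Ctsw, a cathepsin of cytotoxic lymphocytes, was 3.32-fold lower at under 1 CPM (edgeR adjusted p 0.0426) and, with 1 library left out, kept the call only without hydrogel 2, hydrogel 4 or liquid 3, with a log2 change of −1.34 without hydrogel 1. Thinned counts, library totals alone and no low-count filter also ended its call in edgeR (adjusted p 0.0681, 0.0575 and 0.0517). Ctse, an aspartic protease of endosomes, was at 2.83 ± 0.847 CPM in liquid and 3.41 ± 1.12 CPM in hydrogel (edgeR adjusted p 0.497).

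Transcripts of regulators that act on lysosomal and myeloid genes were also higher. Of 9 MiT factors and myeloid regulators edgeR called 7 higher and 0 lower, with a median log2 change of 1.52. Mitf rose 4.76-fold (from 3.57 ± 1.62 to 16.9 ± 5.70 CPM), Tfeb 3.07-fold and Tfec 1.70-fold (edgeR adjusted p 0.00127, 0.00711 and 0.000139). Tfe3 was 1.33-fold higher (edgeR adjusted p 0.0484) and lost that call on leaving out any 1 library except hydrogel 1 or liquid 2, where its adjusted p reached 0.128 without hydrogel 3. It was also not called under upper-quartile scaling, library totals alone, limma-voom or the filter of 1 CPM in 4 libraries (adjusted p 0.0705, 0.0603, 0.0521 and 0.0502). Cebpb, a regulator of myeloid cells, rose 3.26-fold (edgeR adjusted p 0.000173), and Spi1, the gene of PU.1, rose 2.86-fold (edgeR adjusted p 0.0074). With the macrophage covariate edgeR called 2 of the 9 regulators higher, Cebpb (log2 1.41) and Tfec (0.71). The 2 called lower were Cebpa (−1.46) and Irf8 (−1.32). In that fit the estimates of Tfeb (−0.68) and Tfe3 (−0.49) turned negative but did not pass (edgeR adjusted p 0.383 and 0.166).

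**Figure D5:**
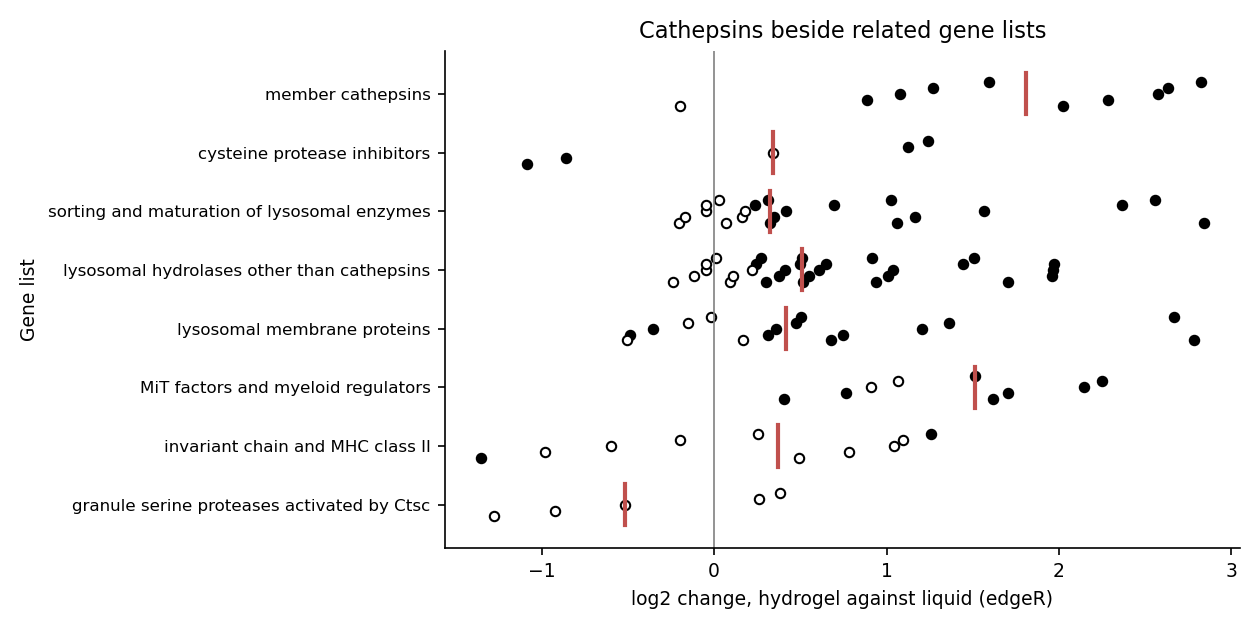
The log2 change between hydrogel and liquid of each tested gene in the cathepsin list and in related lists (filled points passed edgeR at an adjusted p under 0.05, open points did not, red bars are list medians). The cathepsin median of 1.81 lies to the right of the MiT factors and myeloid regulators (1.52) and the hydrolases (0.51). It also lies to the right of the membrane proteins (0.42) and the sorting genes (0.32), and the macrophage markers are not drawn.

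The members' profiles over the 8 libraries were compared by the root mean square difference of log2 CPM, each centred on the gene's mean. Ctsh and Ctss were the closest pair of members (0.0866 log2 units), with Ctsb near both (0.190 from Ctss and 0.199 from Ctsh), and Ctsf and Ctss the farthest apart (1.49). Among 9379 genes with at least 5 CPM, the gene most like Ctsh was Lrrc25 (0.0593), that most like Ctss was Tlr13 (0.0949) and that most like Ctsb was Pik3ap1 (0.0848). Ctsd was closest to Il10rb (0.0688), Ctsa to Cstb (0.0787), Ctsc to Npc2 (0.105), Ctsz to Pld3 (0.106), Ctsl to Tcirg1 (0.175), Ctsk to Pltp (0.185) and Ctsf to Plac8 (0.217). The median profile of the 10 members was most like Fam234a (0.04996), Csf2ra (0.0673), Eepd1 (0.0807), Capg (0.106) and Metrnl (0.125). These genes were chosen for their likeness over the same libraries, and their changes are no further support for those of the members.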

How the data were processed

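The values are raw counts per gene, whole numbers as deposited by the authors in 1 table of 8 libraries. Per the labels' protocols, libraries were made from 150 ng of RNA with polyA selection, a stranded kit and 13 PCR cycles. The submitters' processing notes list STAR 2.7.10b, HTSeq 0.13.5, bcl2fastq and the build GRCm39. Counting mode, strand setting and annotation release were not given in the sources used here. Reads in the exon bases that Ctsa shares with Pltp and Neurl2, Ctsb with Fdft1, Ctsl with Gm47123 and Ctsz with Nelfcd, all on opposite strands, can therefore not be assigned with certainty. Ctsl also shares 395 exon bases on the same strand with a processed pseudogene, Gm49230, so its count may hold reads of that model.

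Symbols and lengths came from GENCODE M21 on another build, and 26534 identifiers had a symbol. The table holds 2 stray lines that name no gene, which were left out, and 0 sample columns were unused. Genes were filtered with filterByExpr, scaled by TMM and tested in edgeR 4.0.16 under R 4.3.3, on a model of culture alone. P-values were adjusted by Benjamini-Hochberg over 13845 genes at 0.05. Standard errors are the log2 change divided by the root of the F statistic. Shares and relative levels used exact permutation over 70 splits. Log2 CPM used a prior count of 2. Scripts were tested on simulated data.

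The members, the gene lists and the tests were chosen with earlier results of these data known. Named were the 10 members, up to 4 passing genes per list by smallest adjusted p, a panel kept regardless of the outcome, and the genes of closest profile. The 18 lists include 9 of cell type markers. Of the genes the rule selects, only those bearing on the cathepsins are described, and 1 is not reported here. Alternatives were DESeq2 (1.42.0) and its size factors, limma-voom (limma 3.58.1), upper-quartile scaling, library totals alone, 2 other low-count filters, thinned counts, a stricter threshold, the replicate block, a macrophage covariate, and libraries left out. The length of all exons as divisor was added after seeing the data.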

Additional observations from a re-analysis of the deposited data

Results flagged for a closer look

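In 60 groups of 4 libraries (CPM, shares and relative levels of the members), 4 held a library whose distance from the nearest other was large for the group's range by Dixon's criterion, which chance marks in about 1 of 20 groups. Liquid 2 was the highest liquid library for Ctsh, at 33.3 CPM where the others were at 11.9 to 15.3 CPM. It was also the highest for Ctsl, at 29.1 CPM against 15.2 to 16.5 CPM. Hydrogel 1 had the lowest Ctsh share of the summed cathepsin level among hydrogel libraries, at 2.26% against 2.55% to 2.59%. Hydrogel 2 had the highest Ctsl level relative to the macrophage markers among hydrogel libraries, at 0.89 log2 units against 0.35 to 0.40.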

How the results depend on the processing

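Over 20 alternatives each, 191 of 200 values of the members kept their side of the threshold and, for the 9 members called, their direction. Ctsf, called in none, was at 0.10 without hydrogel 1 and liquid 2 and negative otherwise. The other 9 values were all from the macrophage covariate, including Ctsc at −0.084 (the cause was not tested). That covariate gave 330 genes higher and 246 lower, 0 members higher and a members' median of 0.26. It turned the sign of Igf2r (−0.35), Ctla2a (0.29), Neu1 (−0.12), Tfeb (−0.68), Tfe3 (−0.49), Spi1 (−0.58), Cd74 (−1.18), Atp6v0d2 (−0.26), Tnfrsf11a (−0.97), Napsa (−0.33), Itga2b (0.32), Pf4 (0.10), Pik3ap1 (−0.061) and Tcirg1 (−0.16). With culture as the only term, Spi1 was at 1.52, Itga2b at −0.72 and Pf4 at −0.55. An adjusted p under 0.01 left 1180 genes higher and 911 lower, and the 9 members that rose all passed it. Upper-quartile scaling gave 1755 higher and 2492 lower, against 2096 and 1956. With the replicate block, 2193 genes were higher and 2045 lower, 9 members rose and the members' median was 1.78. The deviations of same-numbered libraries correlated at 0.22, 0.33, −0.13 and 0.10, and not every library was closest to its own number. Hydrogel 2, 3 and 4 all correlated most with liquid 2 (0.33, 0.25 and 0.16), a library that stood apart from its group. These values can therefore not decide whether the numbers pair the libraries. Leaving out each library gave 1224 to 2446 genes lower and 1476 to 2529 higher. The ranges that follow are from leaving out 1 library at a time. Share differences ran from −2.22 to −1.59 points for Ctsa, 7.72 to 10.9 for Ctsb and −0.724 to −0.535 for Ctsc. They ran from −24.0 to −18.5 for Ctsd, −0.0693 to −0.0429 for Ctsf, 1.11 to 1.47 for Ctsh and 11.4 to 14.3 for Ctss. Without hydrogel 1 and liquid 2 together, differences beyond these ranges were −2.30 for Ctsa, 11.7 for Ctsb, −26.2 for Ctsd, 1.55 for Ctsh and 15.5 for Ctss. The levels relative to macrophage markers ran from −1.28 to −0.86 for Ctsa, −1.40 to −1.02 for Ctsc and −1.67 to −1.20 for Ctsd. They ran from 0.31 to 0.49 for Ctsh, 0.34 to 0.58 for Ctsk, 0.30 to 0.53 for Ctss and −0.89 to −0.53 for Ctsz. Without both libraries Ctsa (−1.32), Ctsc (−1.41) and Ctsd (−1.80) lay beyond these ranges. With 4 against 3 libraries many of these exact p-values become 0.0571, where 0.0286 was also reached, and 3 against 3 cannot go below 0.1. A prior count of 0.5 put Ctsa at −1.06 and Ctsh at 0.36, and markers of at least 10 CPM put Ctsa at −1.04. With the length of all exons no share crossed its threshold or changed sign. Depth limits Ctsf most, with 29 to 57 reads per library.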
